A study of Mus musculus with 23 samples.

Results

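The genes described here are 7 markers of pericytes and other mural cells, the contractile and supporting cells that wrap blood vessels: Rgs5 (ENSMUSG00000026678), Notch3 (ENSMUSG00000038146), Cspg4 (ENSMUSG00000032911), Mcam (ENSMUSG00000032135), Kcnj8 (ENSMUSG00000030247), Abcc9 (ENSMUSG00000030249) and Pdgfrb (ENSMUSG00000024620). They were taken from a gene count table of mouse endometrium by symbol, after the Ensembl identifiers of its rows had been matched to gene names. All 7 were found among the 18682 features of the table, and all 7 passed the low-count filter that left 17708 features for testing. The rule itself held no measured value. The 7 genes were chosen with earlier results of these data known, so they are not a blind choice. The question was whether these genes followed the vessel gene Pecam1, an adhesion molecule of endothelial cells, or the visceral muscle gene Myh11, the smooth muscle myosin heavy chain, over 23 uterine horns.

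Pericytes sit on capillaries inside the basement membrane they share with the endothelium, and vascular smooth muscle cells take their place on larger vessels. Endothelial cells recruit mural cells with the growth factor PDGF-B, which binds the receptor encoded by Pdgfrb, and keep them in a mature state through Notch ligands that bind the receptor encoded by Notch3. In the uterus, vessels run through the stroma of the endometrium as well as through the muscle wall, the myometrium. Myh11 is strong in that muscle and is also expressed by vascular smooth muscle. None of the 7 genes marks mural cells alone: Pdgfrb is also known from fibroblasts and stromal cells, Mcam from endothelium, Cspg4 from glial precursors, and Notch3 from epithelia.

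RNA was sequenced in bulk from the endometrium of single uterine horns of female C57BL/6 mice, described by the submitters as immunocompetent. The uterus was injured with 70° ethanol, injection into the horns followed 4 days later, and tissue was taken 2 weeks after injection. The 6 HG+ORG horns received a hybrid hydrogel (HG) made from endometrium together with human endometrial organoids (ORG), the 6 HG horns the hydrogel without organoids, and the 5 PBS horns buffered saline. What the 6 SHAM horns received, and whether they were injured, is stated nowhere in the labels, nor are the ages of the mice. Gentle pressure with forceps was used to squeeze the endometrium away from the muscle wall, and Myh11 still ran from 0.419 to 670 CPM (counts scaled to the size of the library) over the horns. Reads were aligned to the mouse genome, which does not tell reads of the injected human cells from mouse reads.

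Total counts per library ran from 7920918 to 14902952 with a median of 12701407, and mitochondrially encoded genes took 1.5 to 11.4% of them. The design text counts 21 mice in the group used for tissue, fewer than the 23 horns, so some horns share a mouse. The labels do not tie horns to mice, so p-values over horns take no account of shared mice. They may be too small, and the direction of the error cannot be known without the pairing. All 7 epithelial and all 11 stromal markers listed for the endometrium were in the table. Replicate 18 of HG+ORG stood apart, with the highest macrophage score and the lowest epithelial score of all 23 horns (mean log2 CPM of the listed genes, 9.77 and 6.38). The counts of SHAM replicates 5 and 6 differed by a chi-square of 2.90 per degree of freedom, where sampling noise gives 1 and the next closest of the 253 pairs of libraries had 16.7. They were kept as 2 samples, and each was also left out in turn.

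The 6 genes with a promoter window at hand, all but Pdgfrb, differ in what lies just before their start. The 250 bases upstream of the start of transcription are shown for 4 of them, because the pair that forms 1 channel (Kcnj8 and Abcc9) and the genes with the widest and the narrowest spread over the horns (Rgs5 and Notch3) can then be set side by side. The sequences are from RefSeq on build GRCm38.p6, given 5′ to 3′ on the strand of the gene: chr1:169655251-169655500 on the plus strand for Rgs5, chr17:32166891-32167140 on the minus strand for Notch3, chr6:142571615-142571864 on the minus strand for Kcnj8 and chr6:142702275-142702524 on the minus strand for Abcc9. Capitals mark any match to 4 motifs on either strand: the GC box GGGCGG, the RBPJ core TGGGAA that Notch signalling uses, the TATA box TATAAA and the CArG box bound by SRF.
Rgs5: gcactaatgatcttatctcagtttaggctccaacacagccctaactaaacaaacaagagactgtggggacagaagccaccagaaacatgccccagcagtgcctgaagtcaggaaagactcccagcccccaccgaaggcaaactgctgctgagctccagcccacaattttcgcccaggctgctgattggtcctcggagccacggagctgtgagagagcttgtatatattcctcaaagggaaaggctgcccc
Notch3: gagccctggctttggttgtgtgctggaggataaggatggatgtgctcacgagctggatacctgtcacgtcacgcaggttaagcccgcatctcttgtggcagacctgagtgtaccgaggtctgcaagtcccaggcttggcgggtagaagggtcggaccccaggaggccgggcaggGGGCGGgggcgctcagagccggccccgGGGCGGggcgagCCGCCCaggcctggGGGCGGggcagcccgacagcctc
Kcnj8: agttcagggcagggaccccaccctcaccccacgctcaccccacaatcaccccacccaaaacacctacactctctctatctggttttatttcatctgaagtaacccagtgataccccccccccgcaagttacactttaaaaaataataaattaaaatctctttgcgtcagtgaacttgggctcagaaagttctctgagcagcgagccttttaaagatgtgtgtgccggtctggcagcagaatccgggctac
Abcc9: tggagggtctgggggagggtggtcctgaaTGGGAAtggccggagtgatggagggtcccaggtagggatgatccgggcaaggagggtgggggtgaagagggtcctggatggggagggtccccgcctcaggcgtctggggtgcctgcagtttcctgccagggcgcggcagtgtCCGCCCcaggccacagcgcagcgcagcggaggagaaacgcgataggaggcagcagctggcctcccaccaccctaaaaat

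Notch3 held 4 GC boxes in this window, Mcam 5, Cspg4 2 and Abcc9 1, while Rgs5 and Kcnj8 held none. A GC box occurs in the same window of 32.7% of 32851 promoters. The bases G and C made up 68.8% of the Notch3 window, 73.6% of that of Mcam, 66.8% of that of Abcc9 and 60.4% of that of Cspg4, against 53.6% for Rgs5, 49.2% for Kcnj8 and a median of 52.4% over all promoters. The RBPJ core was found once, 221 bases before the start of Abcc9, and lies in 21.6% of all promoters. No TATA box (12.4% of promoters) and no CArG box (1.47%) was found in the 6 windows at hand, those of all the genes but Pdgfrb. These are letter matches, and binding was not measured.

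Levels are given in CPM, with log2 CPM computed on a prior count of 2. Rgs5 encodes a brake on G protein signalling and is a widely used pericyte marker. In HG+ORG horns Rgs5 had a lowest, median and highest level of 0.298, 3.98 and 98.8 CPM, and in HG horns of 3.72, 46.4 and 372 CPM. The 5 PBS horns were at 41.9, 0.471, 0.0804, 164 and 1.55 CPM (replicates 7 to 11), and the SHAM horns had 0.453, 2.85 and 21.5 CPM. The PBS horns ran from the lowest of all 23 to the second highest, and all 4 groups overlapped. The SD of log2 CPM over all 23 horns was 3.09.

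Kcnj8 encodes Kir6.1, the pore of a potassium channel that is closed by ATP, and Abcc9 encodes SUR2, the sulfonylurea receptor that forms its regulatory subunit. Kcnj8 had a lowest, median and highest level of 0, 0.458 and 7.55 CPM in HG+ORG horns, and of 0.646, 4.57 and 10.5 CPM in HG horns, with 3.84, 0, 0, 12.8 and 0.282 CPM in the 5 PBS horns and 0.0754, 0.494 and 1.29 CPM in SHAM horns. Abcc9 had 0, 0.703 and 6.93 CPM in HG+ORG horns, 1.45, 7.47 and 15.3 CPM in HG horns, 6.98, 0, 0, 20.7 and 0.0704 CPM in the 5 PBS horns, and 0.0754, 0.586 and 2.64 CPM in SHAM horns. Both subunits were high in the same horns, PBS 7 and PBS 10 among the PBS horns, and low in the same others. A count of 0 allows up to 3 counts, which is 0.202 CPM in PBS 8, 0.241 in PBS 9, 0.224 in HG+ORG 19 and 0.209 in HG+ORG 23; this covers counting error only. Kcnj8 was under 10 counts in 12 of 23 horns and Abcc9 in 10, so their lowest levels are imprecise.

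Mcam encodes CD146 and Cspg4 the proteoglycan NG2, both proteins of the mural cell surface. Mcam had a lowest, median and highest level of 0.698, 4.75 and 78.6 CPM in HG+ORG horns, and of 3.88, 57.5 and 92.5 CPM in HG horns, with 35.8, 0.539, 0.322, 63.2 and 2.46 CPM in the 5 PBS horns and 1.28, 4.62 and 18.0 CPM in SHAM horns. Cspg4 had 0.0698, 0.461 and 30.6 CPM in HG+ORG horns, 0.485, 10.4 and 15.5 CPM in HG horns, 3.59, 0.269, 0.0804, 10.6 and 0.422 CPM in the 5 PBS horns, and 0.226, 0.617 and 7.78 CPM in SHAM horns. For both genes the highest HG+ORG horn was replicate 18, far above the other 5 horns of that group. Cspg4 was under 10 counts in 12 horns and Mcam in 2.

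Pdgfrb encodes the receptor for PDGF-B. It had a lowest, median and highest level of 0.373, 1.96 and 128 CPM in HG+ORG horns, and of 2.91, 20.6 and 49.9 CPM in HG horns, with 19.8, 0.0673, 0.161, 43.0 and 1.76 CPM in the 5 PBS horns and 0.453, 1.81 and 6.29 CPM in SHAM horns. HG+ORG 18 was the highest of all 23 horns for Pdgfrb, and the groups overlapped.

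Notch3 encodes the Notch receptor of mural cells. It had a lowest, median and highest level of 12.5, 14.8 and 53.2 CPM in HG+ORG horns, and of 16.4, 18.3 and 41.5 CPM in HG horns, with 24.5, 26.7, 12.6, 30.8 and 14.6 CPM in the 5 PBS horns and 10.3, 18.6 and 63.2 CPM in SHAM horns. The 4 groups lay on top of each other, and no horn fell below 104 counts. The SD of log2 CPM over all horns was 0.68 for Notch3 and 2.08 to 3.09 for the other 6 genes. PBS 8 shows the contrast: it ranked between 19 and 23 of 23 for those 6 genes and 5 for Notch3.

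**Figure D1:**
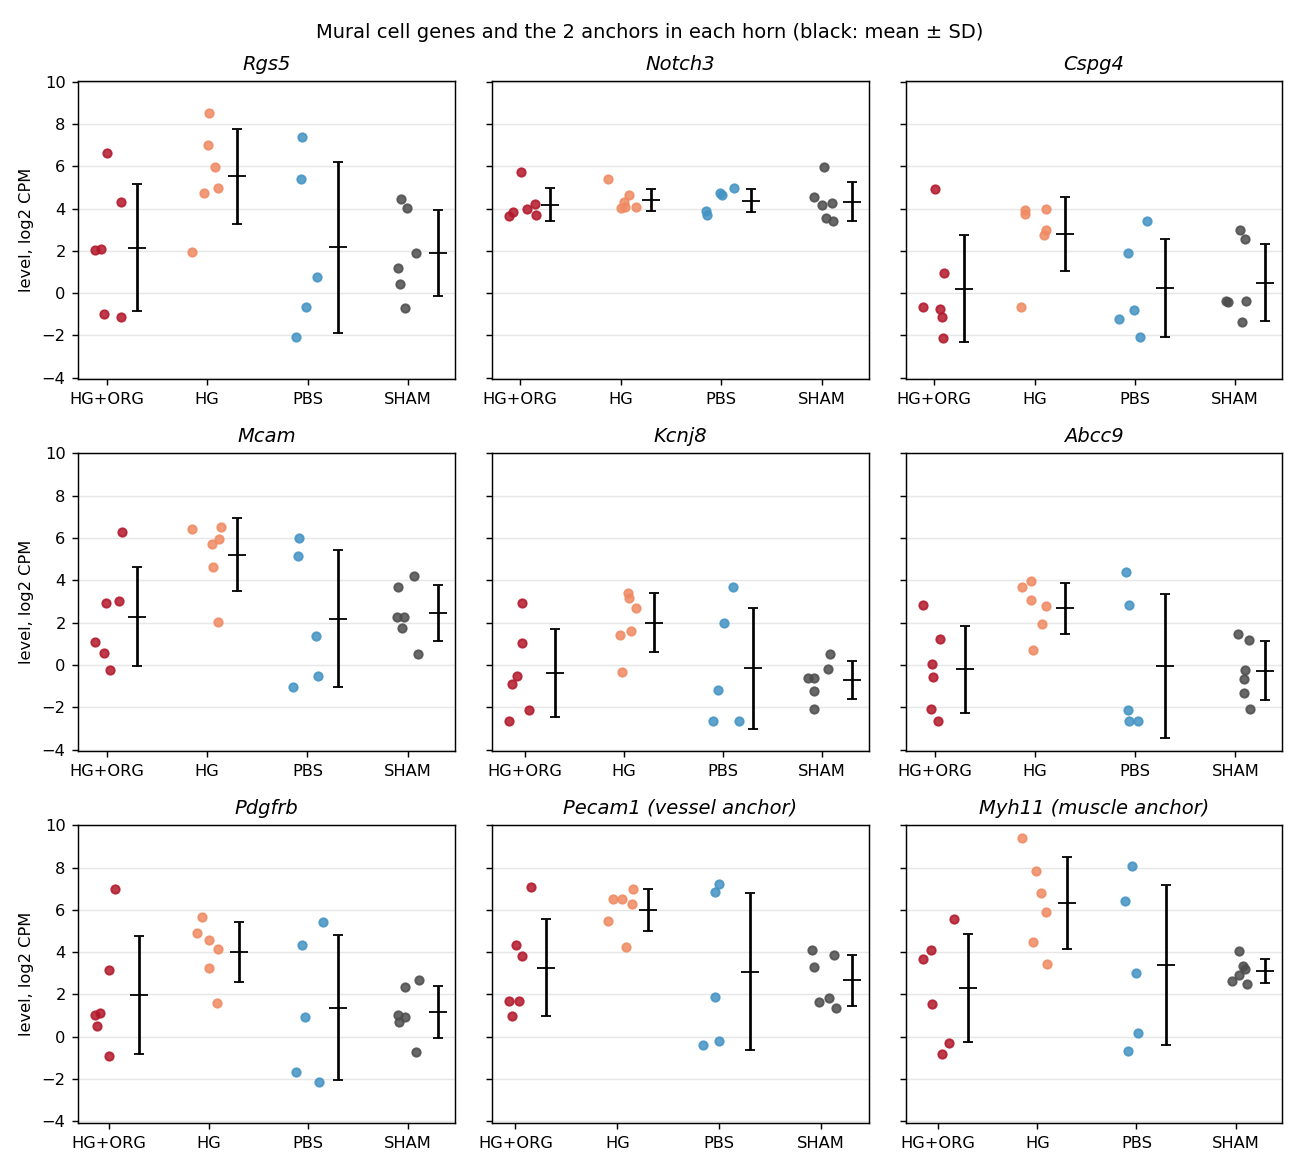
Levels in log2 CPM (vertical axis) of the 7 mural cell genes, of Pecam1 and of Myh11 in each horn, by group, with the black mark giving the mean ± SD (HG+ORG, HG and SHAM n = 6, PBS n = 5). Notch3 stays between 3.39 and 5.99 in all 23 horns, while Rgs5 runs between -2.07 and 8.54.

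The group contrasts ask whether the treatment of the horn goes with the level of mural cell genes. By edgeR's quasi-likelihood test with Benjamini-Hochberg adjustment, 0 of the 17708 features (0%) and so 0 of the 7 genes passed the threshold of 0.05 in each of the 6 contrasts between groups. In bulk tissue, fewer mural cells and less RNA per cell cannot be told apart. The highest average was in HG horns: Rgs5 averaged 5.52 ± 2.24 log2 CPM in HG (SD, n = 6) and 1.88 ± 2.03 in SHAM (n = 6), a fitted log2 fold change of 3.77 (SE 1.55, adjusted p = 0.352). With HG set against SHAM, Kcnj8 had a log2 fold change of 3.21 (SE 1.27), Pdgfrb of 2.97 (SE 1.34), Abcc9 of 2.91 (SE 1.31), Mcam of 2.84 (SE 1.20), Cspg4 of 1.90 (SE 1.28) and Notch3 of -0.10 (SE 0.43), with adjusted p of 0.331 or more. At an unadjusted p under 0.05 this contrast held 5 of the 7 genes, all but Cspg4 and Notch3, and 1996 features in all (11.3%). DESeq2 called 281 features in it and limma with voom 0, and neither called any of the 7 genes.

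In HG+ORG against SHAM only Pdgfrb of the 7 had an unadjusted p under 0.05, with a log2 fold change of 3.06 (SE 1.35, adjusted p = 0.446), beside 1754 features in all (9.91%). DESeq2 called 83 features there and limma 0, with none of the 7 genes among them. That value rested on HG+ORG 18, without which it was 0.01. Without the same horn the fitted folds of Rgs5, Cspg4, Mcam, Kcnj8 and Abcc9 in this contrast also turned below 0, for example to -2.13 for Cspg4 against 1.08 with it. In HG+ORG against HG the log2 fold change ran from -2.31 for Rgs5 to 0.09 for Pdgfrb, and without HG+ORG 18 that of Pdgfrb was -2.98. At an unadjusted p under 0.05 none of the 7 genes was among the 1737 features of this contrast (9.81%), and DESeq2 called 163 features but none of the 7.

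Setting PBS against SHAM gave log2 fold changes between -0.15 for Notch3 and 2.56 for Kcnj8, and 0 of the 7 genes against 385 features (2.17%) had an unadjusted p under 0.05. Setting HG against PBS gave 0.05 for Notch3 to 1.72 for Cspg4 (0 of 7, against 597 features or 3.37%), and HG+ORG against PBS -1.68 for Abcc9 to 0.90 for Cspg4 (0 of 7, against 1079 features or 6.09%). In these 3 contrasts DESeq2 called 1, 0 and 0 features and limma 0, with none of the 7 genes among them. The contrasts share their horns with each other, so their values are not independent. A p that misses the threshold does not show that the groups are alike: with SE values of 1.14 to 1.56 for the 6 genes other than Notch3, differences of several fold could not be resolved.

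Scores of other cell types, each the mean log2 CPM of its list, had their highest group average in different groups. It was HG for endothelium, lymphatic endothelium, stroma and smooth muscle, HG+ORG for macrophages and Schwann cells, and SHAM for adipocytes, mesothelium and epithelium. The macrophage score averaged 6.07 in HG+ORG, 5.21 in HG, 4.35 in PBS and 4.07 in SHAM, and the epithelial score 8.98, 8.91 (the lowest), 9.28 and 9.48 in the same 4 groups. Both HG+ORG averages lean on replicate 18, at 9.77 for macrophages and 6.38 for epithelium. The other HG+ORG horns had 3.92 to 6.63 for macrophages and 9.00 to 10.2 for epithelium. The place of HG+ORG in the order of the groups depends on replicate 18 for epithelium but not for macrophages. The endothelial score over 15 genes was 0.11 to 5.65 in HG+ORG, 2.86 to 5.93 in HG, -0.79 to 5.80 in PBS and 0.54 to 3.30 in SHAM. The score of 11 stromal genes was 3.04 to 7.44 in HG+ORG, 4.18 to 8.08 in HG, 1.13 to 7.23 in PBS and 3.40 to 5.46 in SHAM. The score of 14 smooth muscle genes was 0.50 to 3.91 in HG+ORG, 2.57 to 7.24 in HG, -0.09 to 6.32 in PBS and 1.61 to 2.84 in SHAM. With the levels of Pecam1 and Myh11 added to the fit as covariates, the HG against SHAM folds of the 6 genes other than Notch3 lay below 0, between -0.29 for Rgs5 and -0.90 for Abcc9, and none passed the threshold.

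Over the 23 horns, 6 of the 7 genes followed Pecam1 closely. Pearson's r of log2 CPM with Pecam1 was 0.936 for Rgs5, 0.945 for Kcnj8, 0.962 for Abcc9, 0.965 for Mcam, 0.893 for Cspg4 and 0.946 for Pdgfrb, each with a two-sided permutation p of 1e-05, the smallest that 100000 resamples can give. Spearman's rho for the same 6 genes lay between 0.876 and 0.962, also with p of 1e-05. Notch3 had r = 0.216 (permutation p = 0.323) and rho = 0.354 (p = 0.0993).

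With Myh11 the same 6 genes had lower coefficients, 0.711 for Rgs5 (permutation p = 0.00022), 0.788 for Kcnj8 (1e-05), 0.785 for Abcc9 (2e-05), 0.763 for Mcam (3e-05), 0.637 for Cspg4 (0.00108) and 0.709 for Pdgfrb (0.00014). Their rho lay between 0.699 and 0.845 (permutation p of 0.00024 or less). Notch3 had r = 0.295 with Myh11 (permutation p = 0.173) and rho = 0.429 (p = 0.043). These are 14 relations in all, with p-values not adjusted, and the p-values adjusted over all features are those of the slopes given further on. The pair of anchors is itself related (r = 0.8, permutation p = 1e-05), so a gene that follows 1 of them will follow the other in part.

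The count with a higher r for Pecam1 than for Myh11 was 6 of 7, against 54.1% of 13468 features with a mean of at least 1 CPM. An r over 0.8 with Pecam1 was reached by the same 6 genes and by 544 of these features (4.04%), and an r over 0.8 with Myh11 by none of the 7 and by 91 features (0.68%). After the group means had been subtracted the r with Pecam1 of the 6 genes was 0.869 to 0.961, and that with Myh11 0.508 to 0.718. Without PBS 8 and PBS 9, the 2 horns farthest from the median of Pecam1, r with Pecam1 was 0.886 to 0.957, and without HG 16 and PBS 10, the 2 farthest for Myh11, r with Myh11 was 0.552 to 0.743. The log2 ratio of a gene to Pecam1 had an SD over the horns of 0.65 for Mcam, 0.67 for Abcc9, 0.81 for Pdgfrb, 0.85 for Kcnj8, 1.12 for Cspg4, 1.16 for Rgs5 and 2.42 for Notch3. Within groups, described with no test, the 6 genes had r with Pecam1 of 0.917 to 0.994 in the 6 HG+ORG horns, 0.89 to 0.979 in the 6 HG horns and 0.69 to 0.898 in the 6 SHAM horns, and r with Myh11 of 0.425 to 0.737 in HG+ORG, -0.091 to 0.305 in HG and -0.015 to 0.404 in SHAM. SHAM 5 and SHAM 6, the pair with the closest counts, were the highest SHAM horns for Pecam1 and for the 6 genes, so the SHAM values lean on that pair. No r was computed within the 5 PBS horns, where both anchors were highest in PBS 7 and PBS 10. The lower r with Myh11 seen in the other groups is therefore not shown for PBS. The SD of the log2 ratio in PBS was smaller to Myh11 than to Pecam1 for Pdgfrb (0.421 and 0.735), Kcnj8 (1.09 and 1.17) and Rgs5 (0.98 and 1.04), and larger to Myh11 for Mcam (0.829 and 0.721), Abcc9 (1.16 and 0.995) and Cspg4 (1.73 and 1.69).

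**Figure D2:**
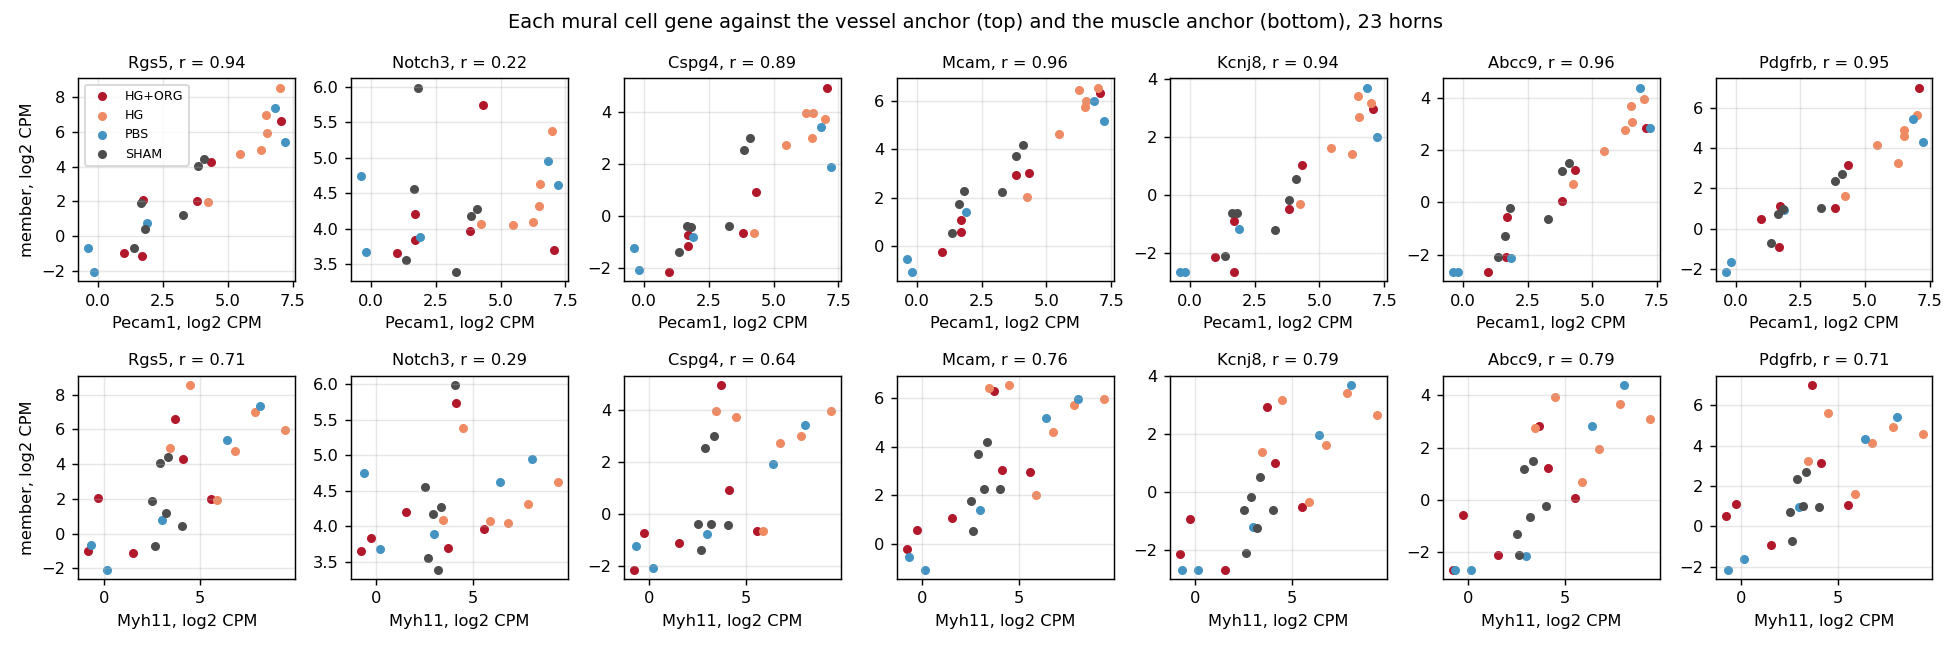
Each of the 7 genes in log2 CPM (vertical axes) against Pecam1 (upper panels) and Myh11 (lower panels), 1 point per horn, coloured by group. Mcam follows Pecam1 along a narrow band (r = 0.965) and Myh11 along a wider one (0.763), while Notch3 shows r of 0.216 and 0.295.

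To separate the anchors, 1 edgeR fit held the group and the levels of both anchors, each scaled to a mean of 0 and an SD of 1 over the horns. A slope is then the log2 change of a gene per SD of 1 anchor at an equal level of the other and within groups. The Pecam1 slope passed the threshold for 6 of the 7 genes, all upward, where 2014 of 17708 features passed in either direction (11.4%) and 1682 upward (9.5%). It was 3.55 for Rgs5 (SE 0.45, adjusted p = 2.37e-05), 2.33 for Kcnj8 (SE 0.34, 0.000131), 2.82 for Abcc9 (SE 0.34, 1.52e-05), 2.58 for Mcam (SE 0.21, 2.11e-07), 2.97 for Cspg4 (SE 0.36, 1.49e-05) and 2.76 for Pdgfrb (SE 0.31, 5.92e-06). The slope of Notch3 was -0.03 (SE 0.29, adjusted p = 0.965). The median over the 7 genes was 2.76, against 0.01 over all features. The 6 calls held when each of the 23 libraries was left out in turn, HG+ORG 18 and SHAM 5 and 6 among them.

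The Myh11 slope passed for 0 of the 7 genes, where 127 features passed (0.717%), and 0 of the 7 had an unadjusted p under 0.05, against 2702 features (15.3%). It ran from -0.61 for Cspg4 (SE 0.37) and -0.59 for Rgs5 (SE 0.43) to 0.42 for Kcnj8 (SE 0.34). DESeq2 and limma also called 0 of the 7 here. The difference of the slopes, Pecam1 minus Myh11, tests directly which anchor a gene follows more. It passed for 5 of the 7 genes, all in favour of Pecam1, where 805 features passed in either direction (4.55%) and 636 in favour of Pecam1 (3.59%). Rgs5 had a difference of 4.14 (SE 0.83, adjusted p = 0.0063), Cspg4 of 3.58 (SE 0.66, 0.00324), Pdgfrb of 2.92 (SE 0.60, 0.00821), Mcam of 2.74 (SE 0.39, 0.000579) and Abcc9 of 2.57 (SE 0.61, 0.0189).

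The difference for Kcnj8 was 1.90 (SE 0.63, adjusted p = 0.086) and that for Notch3 -0.30 (SE 0.54, 0.81). Kcnj8 passed with DESeq2 (1.94, adjusted p = 0.0179), without group terms (1.91, 0.0209) and with the adipocyte score added (2.32, 0.0276), which made 6 of the 7 genes. With the other alternatives that kept all libraries its adjusted p was 0.0678 to 0.953, the highest with Pdgfra added, and it passed in none of the 23 fits that left out 1 library. Leaving out HG 14, the horn with the most Rgs5, left 2 of the 7 genes past the threshold, Cspg4 and Mcam, with adjusted p of 0.076 for Rgs5, 0.0652 for Abcc9 and 0.0544 for Pdgfrb. The difference of Pdgfrb was 2.44 without HG+ORG 18 (adjusted p = 0.054), and that of Abcc9 was 2.43 without HG 16 (0.0508). Both left 4 of the 7 genes past the threshold, and without any 1 of the other 20 libraries the count was 5. With the mean levels of the endothelial and smooth muscle lists as anchors in place of the single genes, the endothelial slope passed for 6 of the 7 (7.25% of features, 6.77% upward), the smooth muscle slope for 0 (1.16%) and the difference for 5 (2.94%, 2.66% in favour of endothelium). That endothelial list holds Pecam1 and the smooth muscle list Myh11.

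**Figure D3:**
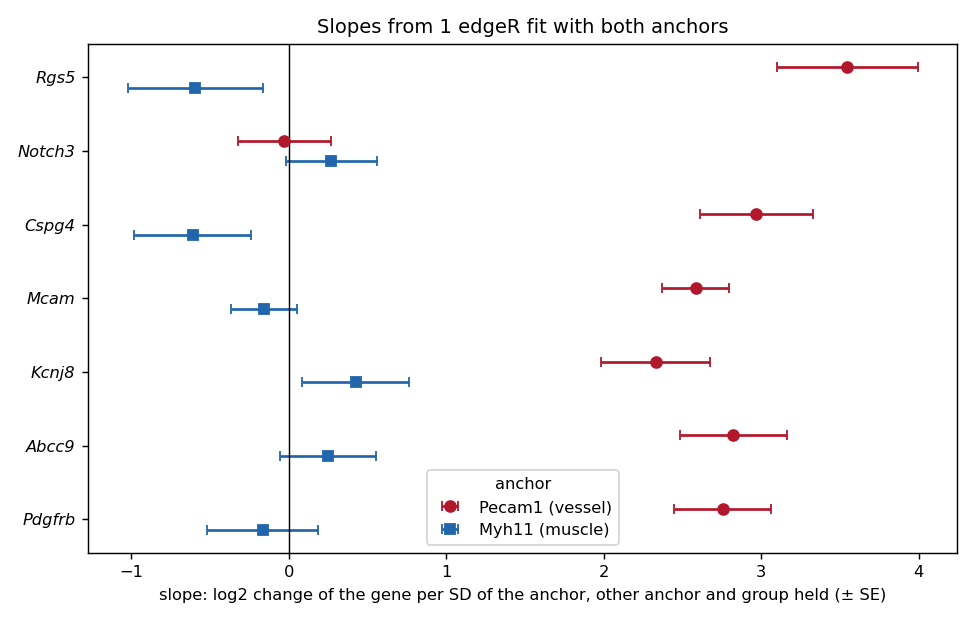
Slopes of the 7 genes on Pecam1 (red circles) and on Myh11 (blue squares) from a single edgeR fit, in log2 change per SD of the anchor on the horizontal axis, with bars of ± 1 SE. The Pecam1 slopes of 6 genes lie between 2.33 and 3.55 and their Myh11 slopes between -0.61 and 0.42, and both slopes of Notch3 lie near 0 (-0.03 and 0.27).

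Stromal genes followed Pecam1 too. Pdgfra, the PDGF receptor of endometrial stromal fibroblasts, had r = 0.911 with Pecam1 (permutation p = 1e-05). With Pdgfra, r was 0.961 for Pdgfrb, 0.912 for Rgs5, 0.914 for Kcnj8, 0.894 for Mcam, 0.892 for Abcc9 and 0.851 for Cspg4 (permutation p = 1e-05 each), and 0.216 for Notch3. When the level of Pdgfra was added to the fit, the Pecam1 slope passed for 1 of the 7 genes, Mcam, at 2.53 (adjusted p = 0.00716), and for 94 features in all (0.531%). The slope of Cspg4 kept its size at 2.79 (adjusted p = 0.173) and that of Abcc9 was 2.16 (0.193), while those of Rgs5, Kcnj8 and Pdgfrb were 1.88, 0.96 and 0.89, with adjusted p of 0.598 to 0.705. The difference of the slopes likewise passed for Mcam alone among the 7 (2.68, adjusted p = 0.0234; 159 features or 0.898% in all). The Myh11 slope in this fit passed for 0 of the 7, as against 163 features (0.92%).

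The Pdgfra level had its own slope at equal Pecam1 and Myh11. It was 1.80 for Pdgfrb (SE 0.34, unadjusted p = 4.01e-05, adjusted p = 0.0944), 1.38 for Rgs5 (SE 0.68), 1.31 for Kcnj8 (SE 0.50), 0.63 for Abcc9 (SE 0.52), 0.17 for Cspg4 (SE 0.67), 0.05 for Mcam (SE 0.34) and 0.37 for Notch3 (SE 0.42). It passed for 0 of the 7 genes and for 4 features in all (0.0226%). For Rgs5, Kcnj8, Abcc9, Cspg4 and Pdgfrb neither the Pecam1 slope nor the Pdgfra slope passed in this fit.

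Other mural cell genes behaved alike. Of 18 further genes reported from pericytes, 15 had a Pecam1 slope past the threshold, all upward, with a median of 2.25 over the 18, and 17 had a higher r with Pecam1 than with Myh11. Rgs4, a relative of Rgs5, had a slope of 3.62 (SE 0.35, adjusted p = 1e-06), Vtn, which encodes vitronectin, of 2.87 (SE 0.37, 3.29e-05), Tbx18, a transcription factor of mural cells, of 2.37 (SE 0.35, 0.000123), and Ednra, an endothelin receptor, of 2.06 (SE 0.28, 5.12e-05). Steap4 (1.16, SE 0.56) and P2ry14 (1.71, SE 0.99) were among those that did not pass. The Myh11 slope passed for 1 of the 18, Enpep, which encodes an aminopeptidase, and downward, as for 0.497% of all features (-2.20, SE 0.43, adjusted p = 0.0196).

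Set beside the other lists, the Pecam1 slope passed upward for 14 of 15 endothelial genes (median 2.52, Pecam1 itself included), 8 of 11 stromal genes (2.05), 6 of 7 macrophage genes (1.30), 4 of 7 adipocyte genes (4.16) and 2 of 14 smooth muscle genes (0.34), Des and Synm. It passed for 2 of 6 lymphatic genes (1.10). By edgeR it passed for 0 of 7 epithelial genes (median -0.55, of which 6 had an unadjusted p under 0.05, against 26.1% of all features), and for 0 of 4 Schwann cell genes and 0 of 4 mesothelial genes, none of which had an unadjusted p under 0.05. The Myh11 slope passed upward for 0.22% of all features and for 10 of 14 smooth muscle genes (median 1.88, Myh11 itself included), among them Cnn1 at 3.29 (SE 0.33, adjusted p = 3.91e-05) and Acta2 at 2.13 (SE 0.38, 0.0115), both of which vascular smooth muscle also expresses. By edgeR it passed for 0 of the 15 endothelial genes, of which 3 had an unadjusted p under 0.05, and for 0 of the 11 stromal genes, of which none did. Macrophage and adipocyte markers thus also moved with Pecam1, and their part in the result was not tested beyond a fit with the adipocyte score added, in which 6 of the 7 mural cell genes still passed on the Pecam1 slope. In favour of Pecam1, the difference of the slopes passed for 13 of 15 endothelial genes, Pecam1 itself included. The same held for 8 of the 18 further mural cell genes, against 3.59% of all features. Among the 11 stromal genes 3 passed this way: Pdgfra (3.00, SE 0.64, adjusted p = 0.00981), Hand2 and Igf1. So did 1 of 7 adipocyte genes, 0 of 7 macrophage genes and 0 of 14 smooth muscle genes.

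**Figure D4:**
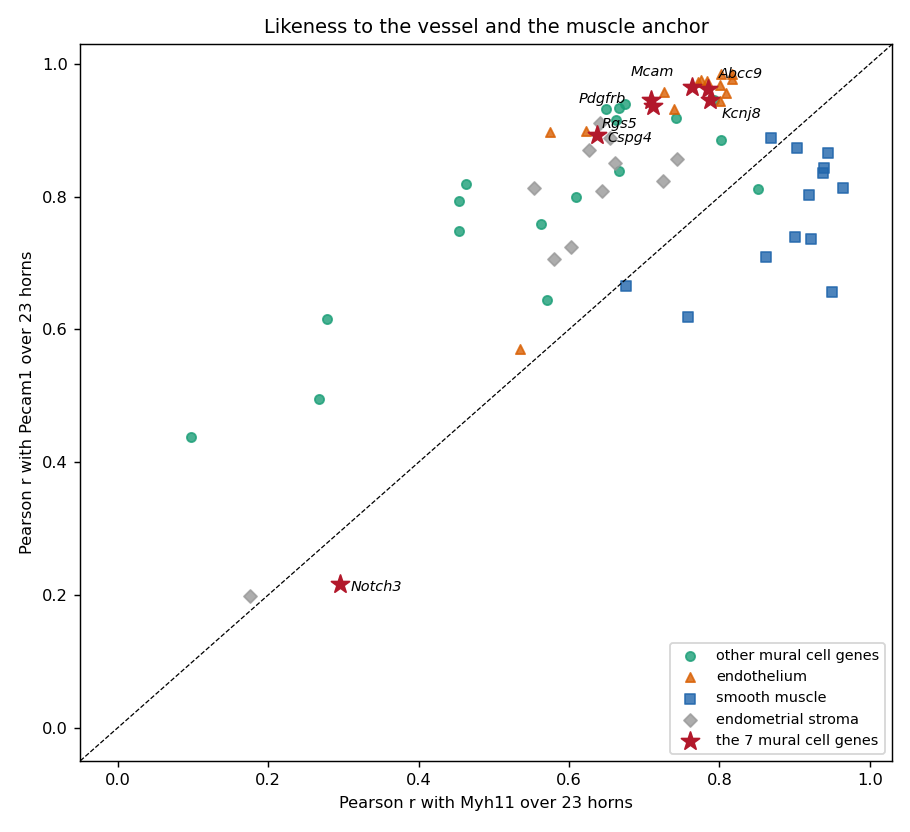
Pearson's r over the 23 horns with Myh11 (horizontal axis) and with Pecam1 (vertical axis) for the 7 mural cell genes (stars) and the genes of 4 lists, with the dashed line where both are equal. Of the 7, all but Notch3 lie above the line near the endothelial genes, 17 of 18 further mural cell genes and all 11 stromal genes lie above it, and Synm alone of the smooth muscle genes lies above it. The anchors themselves are not drawn.

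Among themselves, the 6 genes other than Notch3 had r between 0.904 and 0.974 in all their pairs. The highest were 0.974 for Rgs5 with Kcnj8 and 0.971 for Kcnj8 with Abcc9. Kcnj8 and Abcc9 encode the pore and the regulator of a single channel and lie side by side on chromosome 6, with 0 protein-coding genes between them in the annotation used. Notch3 had r between 0.235 and 0.354 with the other 6.

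The horns that were high for these 6 genes were HG 14, PBS 10, HG 17, HG+ORG 18 and HG 16, and those that were low were PBS 9, PBS 8, HG+ORG 23, HG+ORG 19 and SHAM 1. PBS and HG+ORG thus each held horns of both kinds. Notch3 was highest in SHAM 3 and HG+ORG 21 and lowest in SHAM 2.

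**Figure D5:**
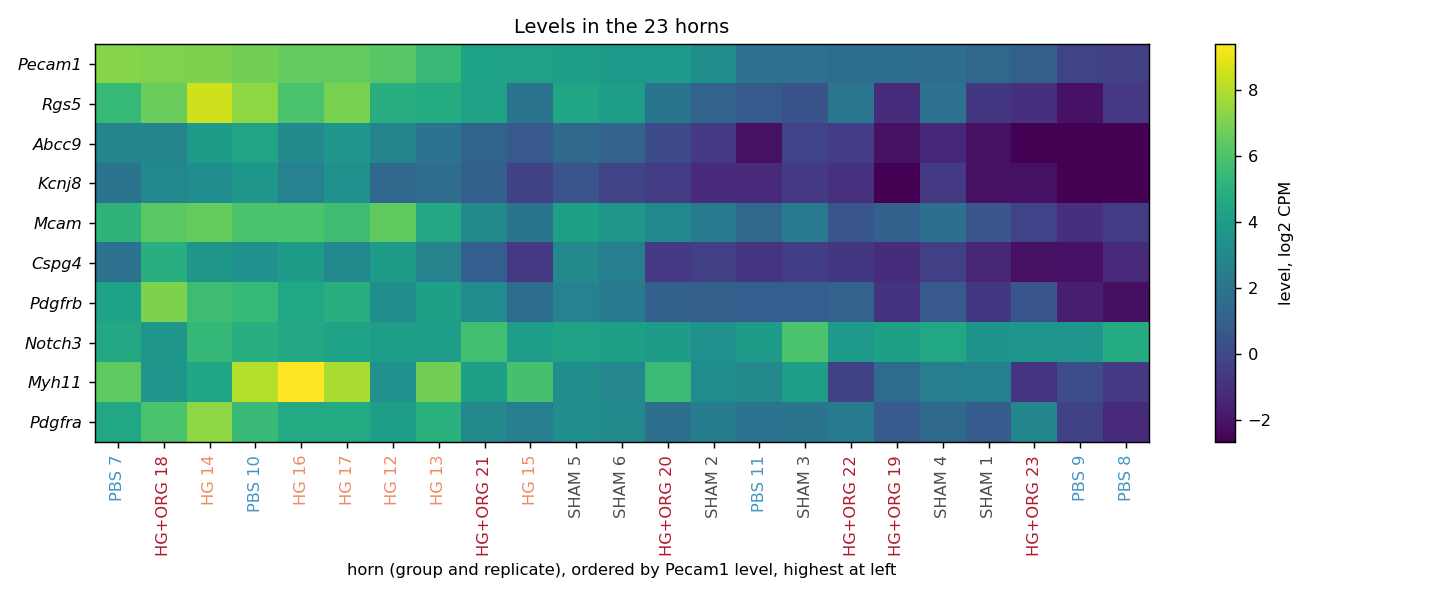
Log2 CPM (colour) of Pecam1, the 7 mural cell genes, Myh11 and Pdgfra in the 23 horns, which are ordered by their Pecam1 level, from 7.22 at the left to -0.39 at the right, with group and replicate below. Darker colours are lower levels. Rgs5, Abcc9, Kcnj8, Mcam, Cspg4 and Pdgfrb darken toward the right as Pecam1 falls, whereas Notch3 keeps nearly 1 shade.

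The features most like each gene, by r over the 23 horns among 13468 features with a mean of at least 1 CPM, included several known from endothelium. Rgs5 was closest to Cdh5 (0.98), which encodes VE-cadherin, Emcn (0.977), which encodes endomucin of vessels, and Kcnj8 (0.974). Kcnj8 was closest to Myct1 (0.982), Emcn (0.976) and Rgs5 (0.974), and Abcc9 to Robo4 (0.985), a guidance receptor of endothelium, Emcn (0.982) and Arhgef15 (0.977). Mcam was closest to Col4a1 (0.975), a chain of basement membrane collagen, Emcn (0.975) and Robo4 (0.971).

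The remaining genes had other neighbours. Cspg4 was closest to Col4a1 (0.961), Lama4 (0.956), a laminin chain of vessel walls, and Adamts12 (0.954). Pdgfrb was closest to Phldb2 (0.978), Rgl1 (0.971) and Prrx1 (0.97), a transcription factor of mesenchymal cells. Notch3 was closest to Rapgef4 (0.875), Spns2 (0.861) and Kat2b (0.83).

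Ligands, receptors and targets around these genes followed Pecam1 only in part. Of 13 listed genes, 5 had a Pecam1 slope past the threshold: S1pr1 (2.52, SE 0.13), a sphingosine phosphate receptor of endothelium, Tek (2.52, SE 0.23), the angiopoietin receptor, Angpt1 (2.26, SE 0.34), its ligand from mural cells, Heyl (2.24, SE 0.34), a target of Notch3, and Tgfb1 (1.20, SE 0.29). Of these, Heyl and Angpt1 are also counted among the 18 further mural cell genes, and Tek among the 15 endothelial genes. Pdgfb, the ligand of the Pdgfrb receptor, had a slope of 0.42 (SE 0.19, adjusted p = 0.15), and the second angiopoietin, Angpt2, of 0.94 (SE 0.38, 0.117). The Notch ligands Dll4 and Jag1 had slopes of -0.30 (SE 0.33) and 0.00 (SE 0.15).

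Notch3 itself was set beside these 13 genes and the epithelial marker Epcam, 14 relations with p-values not adjusted. Its closest relation was with Dll4, a ligand of arterial and sprouting endothelium, at r = 0.784 (permutation p = 2e-05) and rho = 0.803 (p = 2e-05), and without the 2 horns farthest from the median of Dll4 r was 0.664. With Hey1, a Notch target, r was 0.743 (permutation p = 0.00021) and rho 0.562 (p = 0.00571), but r was 0.439 without 2 such horns. Jag1 had r = 0.563 (permutation p = 0.00572) and rho = 0.359 (p = 0.0936), and Pdgfd, another PDGF ligand, r = 0.553 (permutation p = 0.00582) and rho = 0.639 (p = 0.00123). Heyl had r = 0.345 with Notch3 (permutation p = 0.108) and rho = 0.418 (p = 0.0491), beside r = 0.918 with Pecam1. With Epcam, r was 0.201 (permutation p = 0.344) and rho -0.044 (p = 0.843).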

How the data were processed

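Per the submitters' processing notes, the authors worked on build GRCm39 with Trimmomatic 0.39, HISAT2 2.2.1, featureCounts 2.0.3 and DESeq2 1.42.1, and deposited raw counts per gene in 1 table of 23 libraries. The strand setting used in counting is not stated, so overlapping and antisense genes may share reads. Every feature has at least 10 counts in at least 3 libraries. Of the identifiers, 18341 had a symbol and 341 did not.

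edgeR 4.0.16 in R 4.3.3 was run with TMM factors and filterByExpr (974 features removed), 1 fit over all 4 groups, and Benjamini-Hochberg adjustment over 17708 features at 0.05. SE is the absolute log2 value over the square root of F. Slopes came from a fit with group and both anchors. Correlations used log2 CPM (prior count 2) and 100000 permutations in Python 3.11.15 with NumPy 2.4.6. Alternatives were DESeq2 1.42.0, limma 3.58.1 with voom, RLE factors, other filters, covariates and anchors, and each library left out. The fits were also run on simulated counts with known effects. Those counts were drawn for each gene separately, so cell content shared between genes was not simulated. Horns numbered as replicates are separate samples by label only, so p-values measure the spread between these samples. The named genes are the 7 genes, the anchors, the listed genes and, for each of the 7, the 3 features of highest r with an established symbol and a mean of at least 1 CPM. The lists cover mural cells, their ligands and Notch partners, endothelium, lymphatic endothelium, smooth muscle, stroma, epithelium, adipocytes, macrophages, Schwann cells and mesothelium. The 7 genes and the lists were chosen with earlier results of these data known. The values of 1 listed gene are not reported here.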

Additional observations from a re-analysis of the deposited data

Results flagged for a closer look

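Among 28 sets of horns (7 genes in 4 groups), 2 held a horn set apart from the rest of its group, where chance alone gives about 1 in 20. Notch3 in HG+ORG replicate 21 was at 5.74 log2 CPM, and the gap to the next horn took up 0.739 of the range of the group, above Dixon's limit of 0.625 for 6 values. Cspg4 in HG replicate 15 was at -0.64 log2 CPM, with a gap of 0.735 of the range below the other 5 horns. The same horn had the lowest level of its group for Rgs5, Mcam, Kcnj8, Abcc9, Pdgfrb and Pecam1.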

How the results depend on the processing

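The 6 calls on the Pecam1 slope held with RLE size factors, without the low-count filter, with DESeq2 or limma, without group terms, with list scores as anchors, with the adipocyte score added, with 1 anchor at a time and without each library in turn. They did not hold with the Pdgfra level added, where 1 of the 7 genes passed on the Pecam1 slope and 1 on the difference. The lowest levels of Kcnj8, Abcc9 and Cspg4, under 10 counts in 10 to 12 horns, are limited by depth. Where a value turned its sign, the cause was not tested.

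Features past the threshold moved more. DESeq2 called 1 in PBS against SHAM, 281 in HG against SHAM, 83 in HG+ORG against SHAM, 163 in HG+ORG against HG, 810 on the Myh11 slope and 2010 on the difference, against 0, 0, 0, 0, 127 and 805 by edgeR. On the Pecam1 slope, the Myh11 slope and the difference, 3958, 511 and 2819 passed without group terms and 1284, 206 and 521 with list scores as anchors, against 2014, 127 and 805. With Pdgfra added 94 passed on the Pecam1 slope and 159 on the difference, and with the adipocyte score 510 passed on the Myh11 slope and 1613 on the difference. With single libraries left out the counts were 0 to 1 in HG+ORG against HG, 743 to 2487 on the Pecam1 slope, 30 to 529 on the Myh11 slope and 373 to 1479 on the difference, of which 2 to 5 were among the 7 genes. The difference passed for 6 of the 7 genes, Kcnj8 added, with DESeq2, without group terms and with the adipocyte score. The lowest of these counts came without HG+ORG 18 for the Pecam1 slope and the difference and without HG 16 for the Myh11 slope, the highest without HG 12, HG 12 and HG+ORG 20 in the order Pecam1 slope, difference, Myh11 slope, and the 2 genes without HG 14.

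The group folds of the 7 genes, none past the threshold, changed sign in places. With limma and voom the log2 fold turned as follows. PBS against SHAM gave 0.124 for Notch3, -0.512 for Cspg4, -0.407 for Mcam, -0.043 for Kcnj8, -0.589 for Abcc9 and -0.121 for Pdgfrb. HG against SHAM gave 0.166 for Notch3. HG+ORG against SHAM gave -0.034 for Rgs5, -0.811 for Cspg4, -0.39 for Mcam, -0.171 for Kcnj8 and -0.498 for Abcc9. HG+ORG against PBS gave -0.299 for Cspg4, 0.018 for Mcam and 0.091 for Abcc9. HG+ORG against HG gave -2.325 for Pdgfrb. The Pecam1 slope gave 0.054 for Notch3. With Pecam1 and Myh11 as covariates it turned as follows. PBS against SHAM gave -0.363 for Rgs5, -1.124 for Cspg4, -0.8 for Mcam, -0.488 for Kcnj8, -1.175 for Abcc9 and -0.327 for Pdgfrb. HG against SHAM gave -0.294 for Rgs5, -0.816 for Cspg4, -0.433 for Mcam, -0.472 for Kcnj8, -0.895 for Abcc9 and -0.477 for Pdgfrb. HG+ORG against SHAM gave -0.659 for Rgs5, -1.456 for Cspg4, -0.913 for Mcam, -0.168 for Kcnj8 and -0.726 for Abcc9. HG against PBS gave -0.157 for Notch3 and -0.15 for Pdgfrb. HG+ORG against PBS gave 0.028 for Notch3, -0.332 for Cspg4, 0.319 for Kcnj8 and 0.449 for Abcc9. HG+ORG against HG gave 0.185 for Notch3, 0.304 for Kcnj8 and 0.169 for Abcc9.

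The slopes of Notch3 and the Myh11 slopes also turned. With list scores as anchors the Pecam1 slope of Notch3 was 0.261, its difference 0.258 and the Myh11 slope of Pdgfrb 0.179. With Pdgfra added the Myh11 slope of Pdgfrb was 0.327, and with the adipocyte score added the Pecam1 slope of Notch3 was 0.133. With 1 anchor at a time, a setting chosen after seeing the data, the Pecam1 slope of Notch3 was 0.18 and the Myh11 slope was 2.239 for Rgs5, 1.505 for Cspg4, 1.819 for Mcam and 2.184 for Pdgfrb. The other anchor was not held equal in these fits.

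Leaving out 1 library at a time gave ranges that span 0; in HG+ORG against SHAM and against PBS the lowest values other than those of Notch3 came without HG+ORG 18. PBS against SHAM gave -0.309 to 0.396 for Notch3 and -1.239 to 0.936 for Cspg4. HG against SHAM gave -0.363 to 0.461 for Notch3. HG+ORG against SHAM gave -0.444 to 2.129 for Rgs5, -0.755 to 0.357 for Notch3, -2.126 to 1.816 for Cspg4, -0.933 to 1.607 for Mcam, -0.054 to 2.005 for Kcnj8 and -0.564 to 1.211 for Abcc9. HG against PBS gave -0.213 to 0.205 for Notch3. HG+ORG against PBS gave -2.927 to 0.923 for Rgs5, -0.575 to 0.101 for Notch3, -2.338 to 2.316 for Cspg4, -2.406 to 0.726 for Mcam, -2.626 to 0.679 for Kcnj8 and -2.2 to 2.103 for Pdgfrb. HG+ORG against HG gave -0.639 to 0.16 for Notch3 and -2.976 to 0.503 for Pdgfrb. For the Pecam1 slope, they were -0.309 to 0.238 for Notch3. For the Myh11 slope, they were -0.246 to 0.033 for Mcam and -0.447 to 0.105 for Pdgfrb. For the difference of the slopes, they were -0.892 to 0.209 for Notch3. No paired analysis was possible because the replicate numbers run on through the groups and no number occurs in more than 1 group.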
